A study of Mus musculus with 2 samples.

Results

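Arg1 and Arg2, the genes of the 2 mammalian arginases, were followed through every cell class of a bone marrow derived macrophage culture. They were taken by symbol from the gene list of the deposited matrices and are 2 of 31053 genes there. Both groups came from 129Sv mouse bone marrow grown with 10% fetal bovine serum and 50 ng/ml of macrophage colony-stimulating factor (M-CSF), the factor that drives marrow cells towards macrophages. On day 7 one culture received 1 µg/ml of a truncated Tamm-Horsfall protein (THP, or uromodulin, secreted by the kidney) that does not polymerize. The other received its vehicle, 5% dextrose, and both were kept for 18 h before detachment, removal of dead cells and droplet capture. Each group was 1 library, the labels do not say how many animals gave marrow, and treatment, culture dish and library cannot be told apart.

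Arginase splits arginine into ornithine and urea. Arg1 encodes the cytosolic enzyme of the hepatic urea cycle, and in macrophages it is best known as a gene of alternative activation, switched on by interleukin-4 and interleukin-13 through STAT6. Arg2 encodes the mitochondrial enzyme, found in many tissues outside the liver. Both compete for arginine with nitric oxide synthase, and the ornithine they make feeds polyamines and proline.

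Arg1 (ENSMUSG00000019987) is a protein-coding gene on the minus strand at chr10:24915221-24927484 of GRCm38, with 8 exons, a longest transcript of 1477 bases and 323 codons. Arg2 (ENSMUSG00000021125) lies on the plus strand at chr12:79130777-79156301, also with 8 exons, with a longest transcript of 1428 bases and 354 codons. Reads of the 2 genes can be told apart, because their annotated transcripts share 0 stretches of 31 bases, and 628 of 956 aligned coding bases (65.7%) are identical. The longest identical coding run is 12 bases, in exon 5 of both genes, at chr10:24916801-24916812 (minus strand) for Arg1 and chr12:79150789-79150800 (plus strand) for Arg2. It is shown in capitals within 72 coding bases that run on into exon 6, to let the reader see how far the paralogs have diverged.
Arg1: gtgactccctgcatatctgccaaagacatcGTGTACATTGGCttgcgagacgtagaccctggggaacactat
Arg2: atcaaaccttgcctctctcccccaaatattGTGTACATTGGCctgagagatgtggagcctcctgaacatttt

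After filtering, 12123 THP cells and 10978 vehicle cells remained, with a median of 16113 and 17223 unique molecular identifiers (UMIs, counts of captured RNA molecules) per cell. The libraries shared 42 barcodes, of which 38 were kept. Cells were placed in gates by marker genes that include neither arginase, and a gate is a rule rather than a cluster. The macrophage gate (at least 4 of 7 markers, neutrophil list under 1% of UMIs) held 6815 THP cells (56.2%) and 5194 vehicle cells (47.3%). The neutrophil gate (neutrophil list at 1% or more, fewer than 4 of the 7 macrophage markers) held 3156 (26.0%) and 3905 (35.6%). These cultures labelled as macrophages thus also held many granulocytes. Of markers outside the gate rules, the 6 macrophage genes C1qa, C1qb, C1qc, Apoe, Pf4 and Lgmn summed to 3257 and 2354 CPM (UMIs of a gene per 1000000 UMIs of the gate) in the macrophage gate, against 54.3 to 109 CPM in immature and mature neutrophils. In the small B cell gates (84 and 53 cells) the same 6 genes summed to 6623 and 7240 CPM, so they do not mark the macrophage gate alone. The 5 outside neutrophil genes summed to 1407 to 2993 CPM in the neutrophil classes and to 256 and 233 CPM in the macrophage gate. Of the latter, 237 and 200 CPM were Mmp9, which stood at a similar 268 and 223 CPM in the neutrophil gate. Below, values are given as THP then vehicle, bracketed ranges are 95% intervals that cover counting error only, and no test was possible with 1 library per group.

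The 2 arginases differed in where they lay: most Arg1 transcripts were in macrophages and most Arg2 transcripts in neutrophils, in both libraries. In the macrophage gate Arg1 stood at 11.6 CPM (11.1 to 12.1, from 1937 UMIs) in the THP library and at 6.89 CPM (6.45 to 7.34, from 938 UMIs) in the vehicle library. The same gate held 91.9% and 95.6% of all Arg1 UMIs of the kept cells. In the neutrophil gate, whose rule leaves out cells with 4 or more macrophage markers, Arg1 came to 0.211 CPM (5 UMIs) and 0.202 CPM (7 UMIs). Arg1 was therefore 55.0-fold (23.5 to 170) higher in the macrophage than in the neutrophil gate of the THP library, and 34.0-fold (16.4 to 84.9) higher in the vehicle library. For those few neutrophil-gate UMIs the proportion to macrophage transcripts was imprecise. Per 1000 UMIs of C1qa, C1qb, C1qc, Apoe and Pf4 there were 2.71 (0.880 to 6.33) and 4.24 (1.71 to 8.75) Arg1 UMIs in the neutrophil gate, beside 3.90 and 3.28 in the macrophage gate. The intervals include the macrophage values, and what share of these UMIs is free macrophage RNA was not tested.

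Arg2 ran the other way. The neutrophil gate held 17.9 CPM (16.2 to 19.7, 424 UMIs) and 12.96 CPM (11.8 to 14.2, 448 UMIs), and the macrophage gate 1.08 CPM (0.931 to 1.25, 181 UMIs) and 0.411 CPM (0.311 to 0.534, 56 UMIs). Arg2 was 16.5-fold (13.8 to 19.8) higher in neutrophils in the THP library and 31.5-fold (23.8 to 42.4) higher in the vehicle library. Of the Arg2 UMIs of the kept cells, the macrophage gate held 25.4% and 10.1%. Mixed cells, which met more than 1 gate rule or reached both the macrophage and neutrophil limits, held 12.4% and 7.18%. The neutrophil gate held 59.6% and 80.4%. Within it, Arg2 stood at 10.8 and 5.74 CPM in the immature class, richer in granule-protein transcripts, and at 42.2 and 39.5 CPM in the mature class, richer in Retnlg, Cxcr2 and Csf3r.

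The size rule asked for a 2-fold ratio of CPM + 1 or more and for 10 CPM in 1 of the 2 sums compared. Between the gates, Arg2 passed it in both libraries, with log2 ratios of macrophage over neutrophil of -3.18 and -3.31. In the THP library 7.75% of 7835 genes passed in that direction and in the vehicle library 8.21% of 8344. Arg1 passed in the THP library at a log2 ratio of 3.38, where 14.7% of genes were at least 2-fold higher in macrophages. Its vehicle log2 ratio was 2.71, but its level there lay below the 10 CPM minimum (13.6% of genes passed). A 2-fold difference between these gates was thus common, and the share of genes past it is the scale on which the arginase values are read. Mature over immature neutrophils, Arg2 passed in both libraries, at log2 ratios of 1.87 and 2.59, where 2.8% of 7214 and 3.01% of 7820 genes were at least 2-fold higher.

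**Figure D1:**
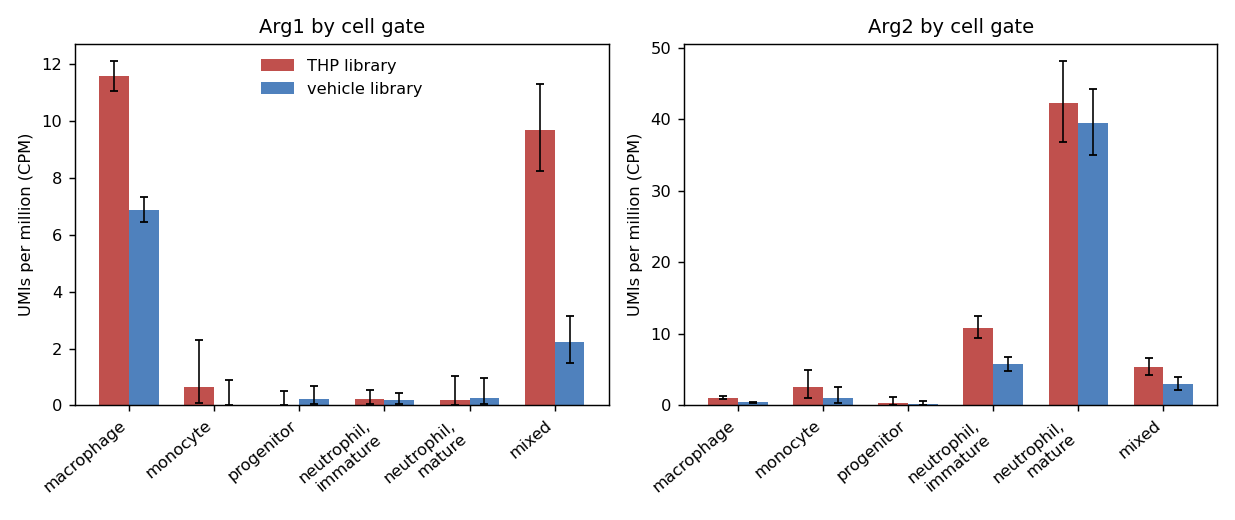
Arg1 (left) and Arg2 (right) in 6 cell gates, in CPM; bars are the sums of the THP library (red) and the vehicle library (blue), and error bars are exact Poisson 95% intervals. Arg1 stands at 11.6 and 6.89 CPM in the macrophage gate and at 9.70 and 2.22 CPM in mixed cells. Arg2 is highest in mature neutrophils at 42.2 and 39.5 CPM.

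The order of Arg1 levels over the other gates could not be resolved. Monocytes had 2 UMIs and 0, progenitors 0 and 3, stromal cells 1 and 0, and B cells and mast cells or basophils 0 in both libraries. With the limit of a count of 0 set at 3 UMIs, it allowed up to 0.404 CPM in THP progenitors and 0.740 CPM in vehicle monocytes, but up to 10.8 and 14.5 CPM in the small B cell gates, which says little. For Arg2 the order ran from mature to immature neutrophils, then monocytes at 2.53 CPM (1.09 to 4.99) and 0.987 CPM (0.269 to 2.53), then macrophages and progenitors at 0.404 CPM (0.0833 to 1.18) and 0.230 CPM (0.0473 to 0.671). Monocyte and macrophage intervals overlapped in both libraries, as did those of macrophages and progenitors. Intervals of the ratios between these neighbours were not computed, so their order was not settled. B cell, mast cell and stromal gates held 0 Arg2 UMIs.

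Arg1 was carried by a small minority of macrophages. At least 1 Arg1 UMI was found in 5.00% (4.50 to 5.55) of macrophage-gate cells of the THP library and 3.47% (2.98 to 3.999) of those of the vehicle library, at median depths of 20713 and 23182.5 UMIs. In the neutrophil gate, the reference for background, the shares were 0.158% and 0.179% at 6113 and 6968 UMIs. With each cell thinned to 5000 UMIs the macrophage shares were 2.19% and 1.75%, beside 0.0565% and 0.176% in neutrophils, after leaving out 95 and 41 shallower macrophages and 1387 and 1637 shallower neutrophils. The transcripts were concentrated further: 108 THP cells and 55 vehicle cells with 5 or more UMIs held 80.6% and 78.3% of the gate's Arg1 UMIs. Single cells reached 87 and 56 UMIs. The variance of UMIs per cell was 21.5 and 18.2 times its mean, where independent counts would give about 1, so the Poisson intervals on Arg1 are narrower than its variation among cells.

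Arg2 showed no such concentration. Its UMIs in the macrophage gate came almost all singly, with at most 3 and 2 in a cell and a variance 1.18 and 1.06 times the mean. In the neutrophil gate 10.8% (9.71 to 11.9) and 9.45% (8.55 to 10.4) of cells had an Arg2 UMI, the most in a cell was 4 and 5, and the variance was 1.35 and 1.32 times the mean. Thinned to 5000 UMIs, which leaves out 1387 and 1637 shallower cells, these shares were 3.84% (3.00 to 4.85) and 1.59% (1.11 to 2.19). Thinned to 1000 UMIs, with no cell left out, they were 4.25% (3.57 to 5.01) and 4.58% (3.95 to 5.29), and the intervals overlapped. These steps cover different cells, and what part depth had in the change was not tested. Macrophages with UMIs of both genes numbered 11 and 2. After thinning to 5000 UMIs these numbers were 1 and 0, beside 0.591 and 0.245 expected from the separate shares.

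**Figure D2:**
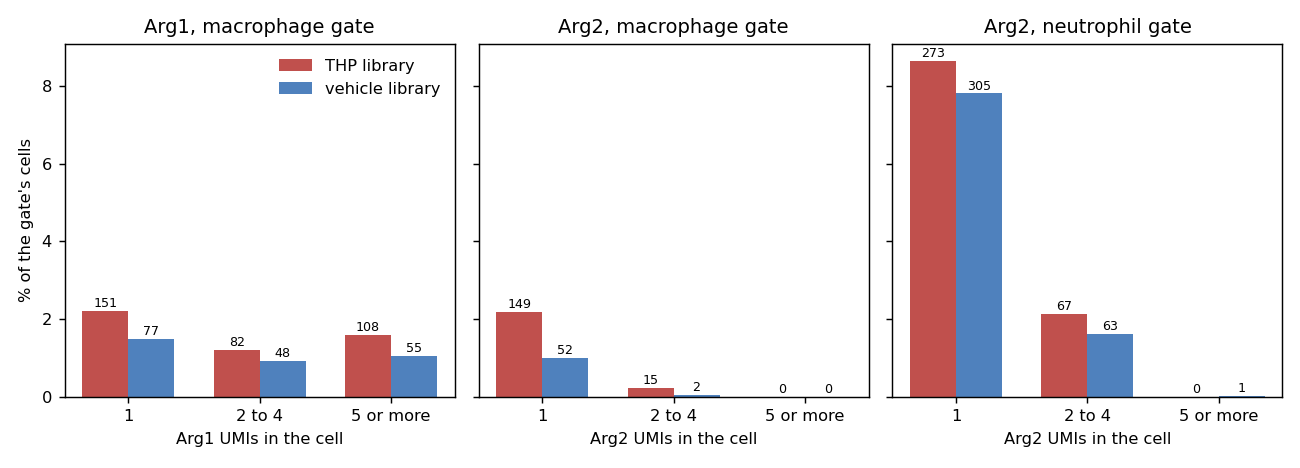
Percent of a gate's cells (vertical axis) with 1, 2 to 4, or 5 or more UMIs of the gene named in each panel title; red is the THP library, blue the vehicle library, and the number over a bar is its cell count. Cells with 5 or more UMIs are found for Arg1 in macrophages (108 and 55 cells), while Arg2 has none in macrophages and 1 in neutrophils.

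Between the treatments, both arginases were higher in macrophages of the THP library. Arg1 was 1.68-fold (1.56 to 1.82) the vehicle level, a log2 ratio of CPM + 1 of 0.67, which lay above those of 98.2% of the 7874 genes with at least 10 CPM. Arg2 was 2.63-fold (1.94 to 3.62) the vehicle level, a log2 ratio of 0.56 because the added 1 CPM weighs heavily at its low level. Of the 2 arginases 0 passed the size rule. Arg1 fell short in its fold, and Arg2 both in its level and in its ratio of CPM + 1. Of all genes 0.953% were at least 2-fold higher and 2.69% at least 2-fold lower. That is 75 and 212 genes, against 117 and 65 when TMM factors (trimmed mean of M values, a scaling that assumes most genes do not differ) set the scale. The factors shift a ratio of CPM by 0.24 on the log2 scale in the macrophage gate, where the median gene stood at -0.17. On the CPM + 1 scale Arg1 then stood at 0.89 and Arg2 at 0.66.

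For Arg1 both the share of cells that carried it and the mean count of a carrier were higher in the THP library. Cells with 2 or more UMIs made up 2.79% (2.41 to 3.21) and 1.98% (1.62 to 2.40) of the gate and held 9.40 and 8.36 UMIs on average. These averages are raw counts, and the carriers had median depths of 25271 and 28639 UMIs. How much of the difference lay in the share and how much in the amount per carrier was not tested. Thinned to 5000 UMIs, the shares of cells with an Arg1 UMI given above had overlapping intervals (1.85 to 2.57 and 1.41 to 2.14). With the 1% of cells richest in Arg1 left out of each library, a step added after the spread was seen, the log2 ratio was 0.83. Those cells held 68.8% and 76.7% of the gate's Arg1 UMIs, so the step took a larger share from the vehicle library. Transcript length moved with treatment: with genes in 5 equal groups of transcript length, the median log2 ratio was 0.11 among the shortest, which include both arginases, and -0.49 among the longest. Relative to that median of the shortest, Arg1 was 0.57 and Arg2 0.46 higher. The part of length in these differences was not tested beyond that subtraction.

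Arg2 in the macrophage gate was also set against neutrophil transcripts there. Per 1000 UMIs of Ngp, Camp, Ltf and Retnlg there were 21.2 (18.2 to 24.5) and 5.05 (3.82 to 6.56) Arg2 UMIs in the macrophage gate, beside 0.811 and 0.572 in the neutrophil gate. Against Retnlg alone, a transcript of mature neutrophils, the figures were 267 and 51.2 in macrophages and 12.6 and 8.61 in mature neutrophils. The gate rule itself limits these neutrophil transcripts in the macrophage gate and does not limit Arg2, so the ratios there are raised in part by the rule. The part of neutrophil RNA in the Arg2 of this gate was not tested. A macrophage gate with the neutrophil list under 0.2% of UMIs, added after seeing the data, gave a THP over vehicle log2 ratio of 0.60. The shares of macrophages with an Arg2 UMI, 2.41% and 1.04%, stood beside 0.824% and 0.379% in progenitors at similar depth (20123.5 and 24545 UMIs), and their intervals overlapped.

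In the neutrophil gate Arg2 was 1.38-fold (1.20 to 1.58) higher in the THP library, a log2 ratio of 0.44, and did not pass the size rule (1.1% of 7568 genes did so upward and 3.75% downward). That ratio depended on how cells were weighted: with equal weight per cell it was -0.0022. The classes differed within the gate. In immature neutrophils Arg2 was 1.88-fold (1.52 to 2.34) higher with THP, and in mature neutrophils 1.07-fold (0.895 to 1.28), an interval that includes 1. Whether these ratios differ could not be tested.

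Some cells of the neutrophil gate also carried Mpo, Elane, Prtn3 and Ctsg, transcripts of the primary granules made at the promyelocyte stage, at 0.5% of UMIs or more, and the gate was split by this after the data were seen. Arg2 was low in such cells: 0.940 and 0.587 CPM among those that met the immature rule and 1.61 and 2.01 CPM among the 162 and 195 that met the mature rule. The latter go against that name, with 6501 and 6977 CPM of Mpo, 117 and 55.1 CPM of Retnlg and 11.2 and 22.9 CPM of Cxcr2, and they lower the Arg2 level of the whole mature class. Without them, immature neutrophils, with 19635 and 19055 CPM of the secondary granule gene Camp, held 19.3 CPM (16.7 to 22.3) and 10.9 CPM (9.24 to 12.8) of Arg2. Mature neutrophils without them, 836 and 1049 cells with 6196 and 9829 CPM of Retnlg, held 77.8 CPM (67.9 to 88.8) and 82.8 CPM (73.5 to 93.0). Arg2 was thus 4.03-fold (3.30 to 4.91) and 7.58-fold (6.19 to 9.31) higher in these mature than in these immature cells. Between the treatments, the interval of the ratio included 1 in the mature cells (0.939, 0.784 to 1.12) and did not in the immature ones (1.77, 1.42 to 2.21).

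In these mature cells 21.4% and 22.0% had an Arg2 UMI, at a median depth of only 2157 and 1948 UMIs, while immature cells reached 9.75% and 6.85% at 5669 and 6395 UMIs. Thinned to 1000 UMIs, which every kept cell reaches, 11.7% and 13.4% of the mature and 2.34% and 2.07% of the immature cells had one. At that depth 0.103% and 0.0385% of macrophages did. The order of the classes was the same without thinning and at 1000 UMIs. Thinned to 5000 UMIs, which leaves out 711 and 907 cells of the whole mature class and 676 and 730 of the immature one, 4.53% (2.43 to 7.62) and 1.19% (0.324 to 3.01) of the mature and 3.71% (2.81 to 4.80) and 1.66% (1.14 to 2.33) of the immature cells had one. These intervals overlapped between the classes, and in the vehicle library the order turned. The mature cells deep enough for that step are few, and cells with progenitor transcripts have far higher median depths (15351.5 and 19998 UMIs).

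**Figure D3:**
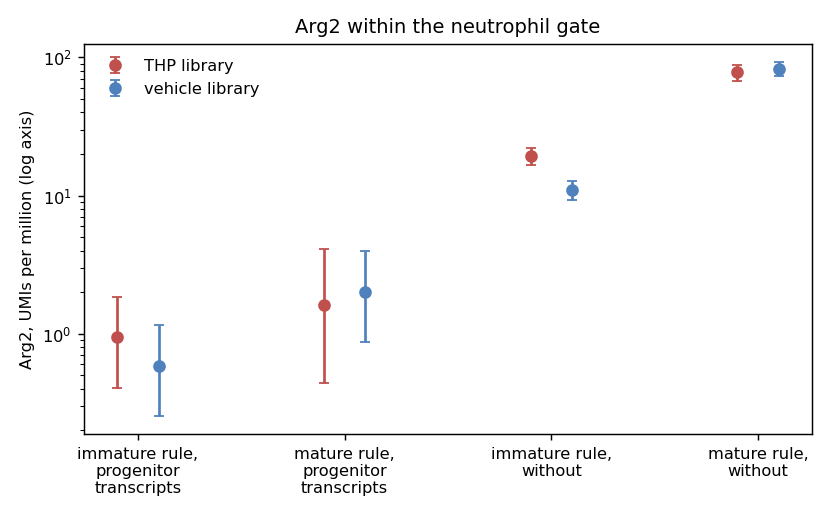
Arg2 in neutrophil-gate cells by the immature or mature rule, with and without progenitor transcripts, in CPM on a log axis; points are the sums of the THP library (red) and the vehicle library (blue), and bars are exact Poisson 95% intervals. Arg2 lies at 77.8 and 82.8 CPM in cells of the mature rule without progenitor transcripts and between 0.587 and 2.01 CPM in cells with them.

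Arg1 was then read along 7 ranges within the macrophage gate, each the 10% of cells, over both libraries together, with the highest share of a short gene list, against the other macrophages. The genes of alternative activation (Chil3, Retnla, Mgl2, Ccl24, Il4ra) did not mark the Arg1 cells. Arg1 stood at 1.47 CPM (12.3 in the other cells) in the THP library and at 0.537 CPM (7.78 in the other cells) in the vehicle library. Cells with an Arg1 UMI were likewise fewer there, 1.57% against 5.28% and 0.580% against 3.91%. That list is in effect Chil3, which made up 97.8% and 97.6% of its UMIs in those cells, while Retnla, another gene of the interleukin-4 response, stood at 4.06 and 0.179 CPM.

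The MHC class II range was low in Arg1 in the THP library, at 1.09 CPM against 12.3. In the vehicle library it was 7.14 against 6.86 CPM, but 1 cell of the vehicle range held 56 of its 115 Arg1 UMIs. Shares of cells with Arg1 were lower in both, 0.567% against 5.38% and 1.34% against 3.78%. The list of Atp6v0d2 and Mmp12, genes of osteoclasts and of macrophage elastase, is in effect Mmp12, with 95.3% and 95.7% of its UMIs in its range. That range was low in Arg1 in the vehicle library, at 0.464 against 7.96 CPM. With THP it was 9.75 against 11.8 CPM, a ratio of 0.829 (0.697 to 0.979), and 1 cell held 51 of the 150 UMIs of that range. Shares of cells with Arg1 were 3.04% against 5.19% with THP and 1.15% against 3.77% in the vehicle library.

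Single cells decided several of the other ranges, so each value is also given without the 1 cell richest in Arg1 in the range and in the other cells, a step added after seeing the data. On that footing the MHC class II range stood at 0.546 against 11.8 CPM and 3.67 against 6.50 CPM, and that of Atp6v0d2 and Mmp12 at 6.45 against 11.2 CPM and 0.310 against 7.48 CPM. C1q-high cells had 11.9 against 11.6 CPM and 3.59 against 7.18 CPM. In the THP library 1 cell held 67 of their 157 Arg1 UMIs, and without the richest cells the values were 6.84 against 11.0 CPM and 2.70 against 6.74 CPM. Fewer of them had an Arg1 UMI in both libraries, 3.68% against 5.14% and 1.82% against 3.66%.

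Cells high in Vsig4 and Cd209f, receptors of resident macrophages, had 12.5 against 11.5 CPM and 6.68 against 6.91 CPM. A single cell held 67 of 236 UMIs in the THP range and 56 of 100 in the vehicle range, and without the richest cells the values were 8.98 against 10.9 CPM and 2.95 against 6.56 CPM. Their shares of cells with Arg1 were 5.21% against 4.98% and 2.79% against 3.54%. Cells high in interferon-stimulated genes had 15.5 against 11.1 CPM and 13.3 against 6.47 CPM. Of these UMIs 1 cell held 67 of 308 and 42 of 112, and without the richest cells the values were 12.1 against 10.5 CPM and 8.36 against 6.03 CPM. Shares of cells there, 6.12% against 4.84% and 3.12% against 3.49%, did not order in the same way in both libraries.

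The inflammatory range (Tnf, Il1b, Cxcl1, Cxcl2, Cxcl3, Ccl3, Ccl4, Acod1, Saa3) fell almost wholly in the THP library, with 1160 cells against 41. Its THP cells held 10.7 CPM (9.48 to 12.0) of Arg1, beside 11.8 CPM (11.2 to 12.3) in the other THP macrophages. Without the richest cells these were 9.46 and 11.1 CPM. Its 41 vehicle cells had 0 Arg1 UMIs. For Arg2 the alternative activation range stood at 2.24 against 0.996 CPM and 0.776 against 0.360 CPM, from 26 and 13 UMIs.

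**Figure D4:**
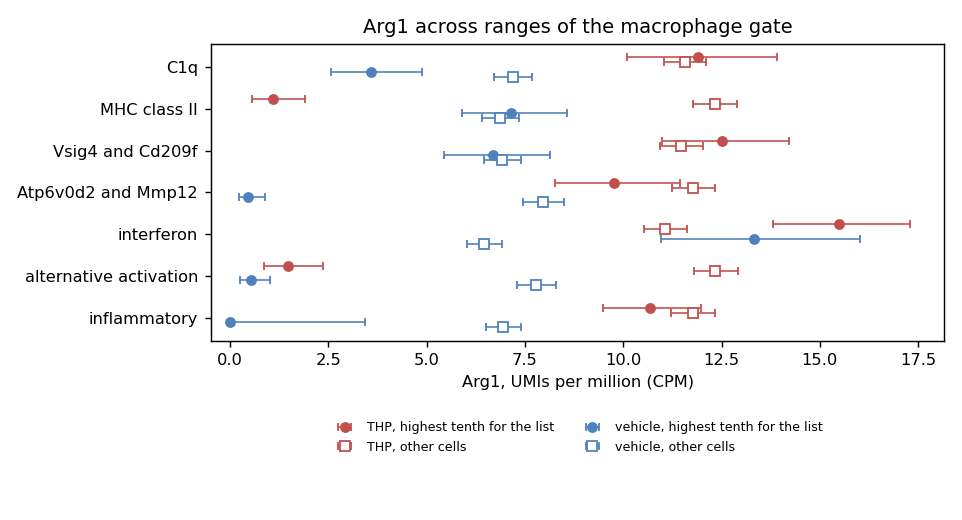
Arg1 in CPM in the highest 10% of macrophage-gate cells for each of 7 gene lists (filled circles) and in the other macrophage-gate cells (open squares); red is the THP library, blue the vehicle library, and bars are exact Poisson 95% intervals. The alternative activation range lies at 1.47 and 0.537 CPM, far below the other cells of the same library.

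Macrophages with 2 or more Arg1 UMIs (190 and 103 cells) were set against those with 0 (6474 and 5014 cells), a comparison added after the spread of Arg1 was seen. Carriers were deeper, with medians of 25271 against 20542 UMIs and 28639 against 23078.5. In the vehicle library 45 of 7394 genes (0.609%) were at least 2-fold higher in carriers and 91 (1.23%) lower; in the THP library 20 (0.27%) and 48 (0.649%). Of the 45, 44 were also higher in THP carriers and 17 passed the rule there, which is 17 of the 20 THP genes. Of the 91, 88 were also lower and 37 passed, which is 37 of the 48.

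In the vehicle library Col18a1, Ankrd37, Itga6 and Frmd6 ranked between Epas1 and Folr2 among the genes higher in carriers. The first 3 genes and Folr2, which ranked 8, stood as follows. Nptx1 had log2 ratios of 2.52 and 3.46. Hmga2, a chromatin protein of proliferating and fetal cells, had 147 against 37.7 CPM and 216 against 38.4 CPM. Epas1, a hypoxia-inducible transcription factor subunit, had 18.0 against 5.87 CPM and 34.1 against 7.01 CPM. Folr2, a folate receptor of tissue-resident macrophages, had 274 against 104 CPM and 235 against 69.5 CPM. Of the genes lower in vehicle carriers, Ifitm1 led with log2 ratios of -3.32 and -3.82. Ly6c2 and Vcan, both used in the monocyte gate, had -2.17 and -2.06 and -1.04 and -2.83. The pattern recognition receptors Clec4n and Marco had -1.19 and -2.49 and -0.99 and -2.21, and Thbs1, Ltb4r1 and Plbd1 were also among the first 8 lower genes. Igkc, an immunoglobulin gene foreign to macrophages, went opposite ways (1.06 and -3.02).

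Arg2-carrying macrophages (164 and 54 cells with a UMI, of which 149 and 52 held only 1) shared less between libraries. In the vehicle library 34 of 7372 genes (0.461%) were at least 2-fold higher in them, of which 31 were also higher in THP carriers and 6 passed the rule there, out of 12 (0.163%). Gdf15, a stress-induced cytokine, had log2 ratios of 1.82 and 2.31, Egr1, an early response factor, 1.37 and 1.93, and Trp53inp1, a p53 target, 1.48 and 1.63. In the carriers these genes had 72, 108 and 60 UMIs in the THP library and only 24, 55 and 40 in the vehicle library. How those UMIs were spread over cells is not given here. The first gene in the vehicle library, the histone gene Hist1h2bc, had 0.40 and 2.70, H2-Q7 0.47 and 2.26 and Ddit3, a stress-response factor, 0.45 and 2.22, and these did not pass in the THP library. Of 16 genes lower in the vehicle library (0.217%), 10 were lower in the THP library and 0 passed there.

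Across 6 gates in the 2 libraries (12 points that share library, depth and gate) the genes whose log2(CPM + 1) ran closest to Arg1 among 9650 were 2510009E07Rik (Pearson r of 0.985), Col18a1 (0.982), Gas6 (0.976), Slc6a8 (0.975) and Abcc3 (0.973). All 5 were macrophage transcripts, at 11.1 to 33.5 CPM in the THP macrophage gate. Col18a1, the collagen gene of that set, was also higher in Arg1 carriers, at 52.5 against 21.6 CPM and 78.5 against 18.9 CPM. The other genes of the set were not among the first 10 higher genes of vehicle carriers, and their levels in carriers are not given here. Closest to Arg2 were Tarm1 (0.991), Il1f9 (0.964), Prok2 (0.963), Asprv1 (0.961) and Gm5483 (0.943), all highest in mature neutrophils. Tarm1, a receptor of activated myeloid cells, stood at 49.9 and 34.5 CPM in mature neutrophils, 10.4 and 5.67 in immature ones and 1.81 and 1.27 in macrophages.

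The enzymes around arginase were followed through 50 genes in 6 lists: transport, nitric oxide and citrulline recycling, polyamines, ornithine to proline and glutamate, the remaining urea cycle with creatine, and regulators known for Arg1. Between the gates, 8 of 29 genes with enough level in the THP library and 9 of 30 in the vehicle library were at least 2-fold higher in macrophages and 0 lower, beside 14.7% and 13.6% of all genes higher and 7.75% and 8.21% lower. Their median log2 ratios were 0.54 and 0.40, beside 0.22 and 0.13 over all genes. THP over vehicle, 0 of 30 passed in macrophages, beside 0.953% of all genes higher and 2.69% lower (median 0.03, beside -0.17 over all genes). In neutrophils 2 of 28 passed, both higher, beside 1.1% of all genes higher and 3.75% lower (median -0.07, beside -0.23).

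Of 7 transport genes and 8 of nitric oxide and citrulline recycling, 3 of each list had enough level. In both libraries 2 of each were at least 2-fold higher in macrophages, beside 14.7% and 13.6% of all genes. Slc7a7 and Slc3a2, the paired subunits of an arginine exchanger, stood at 38.9 and 32.7 CPM and at 166 and 151 CPM in macrophages, against 9.57 and 11.3 CPM and 67.9 and 69.6 CPM in neutrophils. Slc7a2, an inducible cationic amino acid carrier, had 5.00 and 7.43 CPM in macrophages and 0.632 and 0.897 in neutrophils. Ass1, which with Asl rebuilds arginine from citrulline, had 72.6 and 79.6 CPM in macrophages and 17.4 and 13.5 in neutrophils. Nos2, the inducible nitric oxide synthase, was almost absent, with 26 and 3 UMIs in macrophages (0.156 and 0.0220 CPM) and 0 and 1 in neutrophils. Gch1, the first enzyme in the synthesis of its cofactor tetrahydrobiopterin, was not: it had 91.5 and 58.3 CPM in macrophages and 25.6 and 6.88 CPM in neutrophils, where its THP over vehicle log2 ratio of 1.75 passed the rule.

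Of 12 polyamine genes, 10 had enough level. In both libraries 2 were at least 2-fold higher in macrophages, beside 14.7% and 13.6% of all genes. The median log2 ratios of the list were 0.11 and -0.10, beside 0.22 and 0.13 over all genes. Of 7 genes from ornithine to proline and glutamate, 3 and 4 had enough level and 0 passed. Odc1, the ornithine decarboxylase that opens polyamine synthesis, had 47.3 and 45.7 CPM in macrophages and 59.3 and 69.0 in neutrophils. Sms, the spermine synthase, had 142 and 141 against 57.0 and 53.5 CPM, and Smox, the spermine oxidase, 34.2 and 35.6 against 16.3 and 9.34. Oat, the aminotransferase that sends ornithine towards proline and glutamate, had 88.8 and 81.5 CPM in macrophages and 60.2 and 55.4 in neutrophils. Gamt, of creatine synthesis, had 37.7 and 35.0 against 11.9 and 13.7 CPM. Of the hepatic urea cycle, Cps1 had 0 UMIs in both gates and Otc 1 UMI in all.

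Among regulators, Pparg was a macrophage gene, at 12.8 and 15.5 CPM against 0.548 and 0.578 in neutrophils. Cebpb, a known activator of Arg1, had 432 and 238 CPM in macrophages (log2 ratio 0.86) and 719 and 342 CPM in neutrophils (1.07, past the rule). Klf4 stood at 16.1 and 30.5 CPM in macrophages and 17.1 and 10.4 in neutrophils, and it passed between the gates in the vehicle library alone. Of the cytokines that induce Arg1, Il4 had 3 and 3 UMIs in the macrophage gate and 0 in the neutrophil gate, and Il13 had 0 in both. Other gates were not counted for them.

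**Figure D5:**
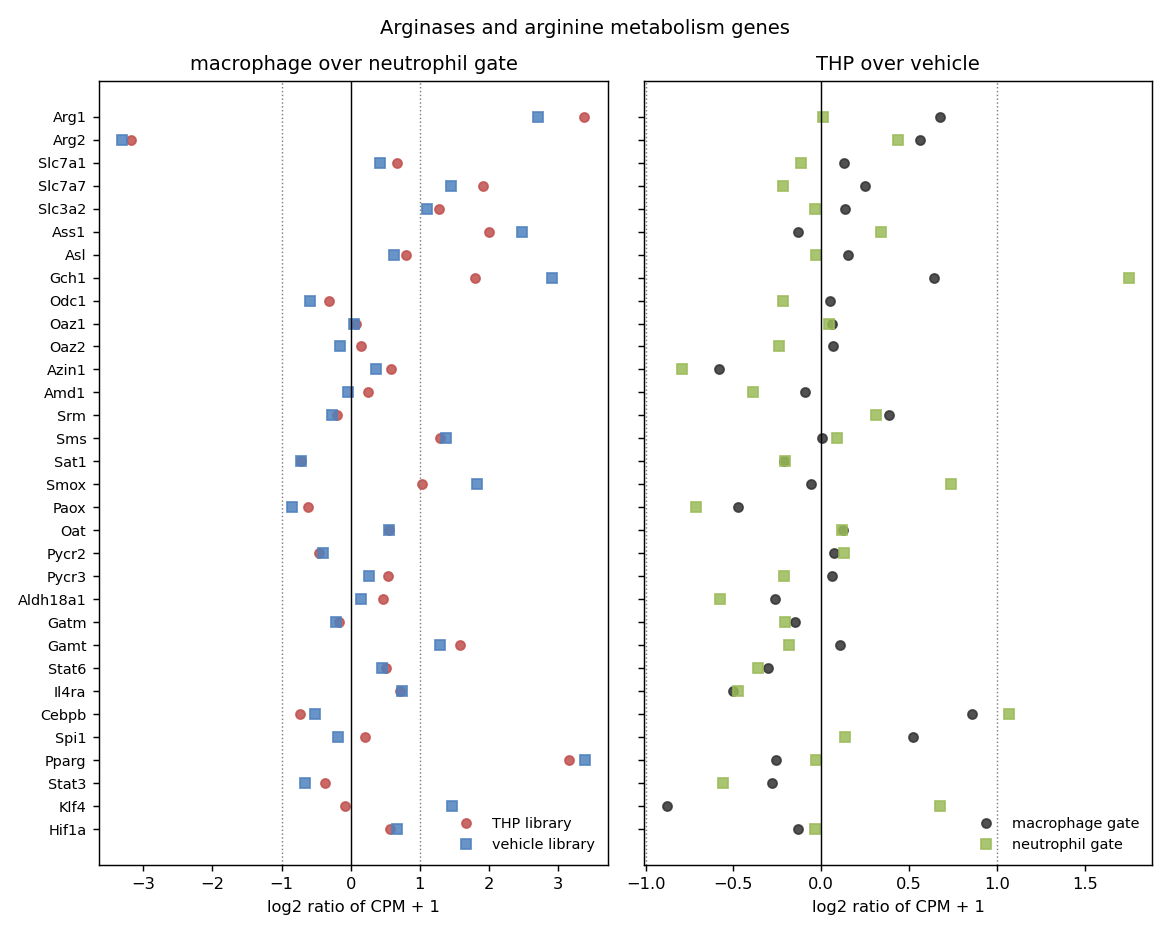
Log2 ratios of CPM + 1 for Arg1, Arg2 and the 30 listed genes with at least 10 CPM in a comparison; left, macrophage over neutrophil gate in the THP library (red circles) and vehicle library (blue squares); right, THP over vehicle in the macrophage gate (black circles) and neutrophil gate (green squares). Dotted lines mark 2-fold. On the left Arg1 and Arg2 lie at opposite ends in the THP library, at 3.38 and -3.18. In the vehicle library Arg1 (2.71) lies below Pparg (3.39) and Gch1 (2.91).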

How the data were processed

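The authors deposited raw UMI counts per gene and cell barcode (matrix software 3.1.0, format version 2, per the file headers). The submitters' processing notes name Cell Ranger, bcl2fastq, STAR and mm10, without versions. Coordinates, exons and lengths come from GENCODE M21 on GRCm38 and are 1-based. Of 13193 THP and 11584 vehicle barcodes (227129670 and 209092047 UMIs), cells were kept with at least 500 genes, at least 1000 UMIs and at most 10% mitochondrial UMIs.

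A cell was gated when it met exactly 1 marker rule. Cells meeting several rules were called mixed. So were cells that met no rule but had at least 4 macrophage markers and a neutrophil list of 1% or more. These mixed cells numbered 654 and 500, where doublets would fall, and no doublet caller was run. Of kept cells, 1915 and 1810 had 3 or 4 macrophage markers, next to the limit of 4, and 491 and 536 had a neutrophil list of 0.5 to 2%. UMIs were summed per gate and divided by the gate's total (CPM). Intervals are exact Poisson, exact binomial (Clopper-Pearson) or exact conditional for ratios, at 95%. Log2 ratios use CPM + 1, which understates changes of low genes.

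Named genes were Arg1, Arg2, Odc1, Nos2, Ass1, Slc7a2 and Oat, listed genes past the size rule (up to 8 a comparison) and the 5 genes most like each arginase. Other names were chosen after their values were seen. Members, lists and rules were chosen with earlier results of these data known. Alternatives were TMM factors, all barcodes, removal of the 5% of cells with most UMIs, strict and loose gates, equal weight per cell, a pseudocount of 0.1 CPM, transcript length, a fold limit of 1.5 and no level filter. The scripts were tested on simulated data. Tools were Python 3.11.15, numpy 2.4.6, scipy 1.17.1, pandas 2.3.3, Biopython 1.88, R 4.3.3 and edgeR 4.0.16 (TMM factors only).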

Additional observations from a re-analysis of the deposited data

Results flagged for a closer look

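Klf4 moved in opposite directions between the gates, with a THP over vehicle log2 ratio of -0.88 in macrophages and 0.67 in neutrophils. No test of that difference exists with single libraries, so it was not tested. Mixed cells, outside the comparisons above, held 9.70 CPM of Arg1 in the THP library (160 UMIs, 654 cells) and 2.22 CPM in the vehicle library (30 UMIs, 500 cells). The same cells held 5.33 and 2.95 CPM of Arg2.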

How the results depend on the processing

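No paired analysis was possible because each group had 1 library. Arg1 THP over vehicle in macrophages (log2 0.67) was 0.89 with TMM factors and 0.57 after subtracting the median of genes of like length. It was 0.83 without the 1% of cells richest in Arg1, which held 68.8% and 76.7% of the gate's Arg1 UMIs. Arg2 in macrophages (0.56) was 1.21 with a pseudocount of 0.1 CPM. In neutrophils Arg1 (0.01) was 0.40 with equal weight per cell and reversed to -0.066 after the length subtraction, on 5 and 7 UMIs, and Arg2 (0.44) reversed to -0.0022 with equal weight and was 0.67 with TMM factors. Macrophage over neutrophil, Arg1 with a pseudocount of 0.1 CPM was 5.23 (THP) and 4.53 (vehicle), and 2.90 in the vehicle library with strict gates. Arg2 with equal weight was -4.50 and -5.10, with the pseudocount -3.93 and -4.67, and without cells with progenitor transcripts -4.00 and -4.23. Removing the 5% of cells with most UMIs, using all barcodes or loose gates moved none of these 8 ratios beyond its counting interval.

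In macrophages, genes at least 2-fold higher with THP numbered 75, and 117 with TMM factors; those lower numbered 212, and 65 with TMM factors. With a fold limit of 1.5 they were 179 and 1276. Arginine metabolism genes past the rule (0) were 1 with TMM factors and 3 with the limit of 1.5, and in neutrophils (2) they were 6. Between the gates, genes higher in macrophages numbered 2142 at 1.5-fold and 1739 with no level filter in the THP library (1149), and 1981 and 1744 in the vehicle library (1136). Those lower were 997 and 953 (607) in the THP library, and 1222 at 1.5-fold (685) in the vehicle library. Arginine metabolism genes past the rule were 14 (8) and 15 (9) at 1.5-fold.

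With 1 library per group, intervals cover counting alone, and variation among cultures was not measured. Arg1 in neutrophils, monocytes and progenitors, and any arginase in the B cell, mast cell and stromal gates, lay at the limit of detection. Shares of macrophages with a UMI of either gene, and of neutrophils with an Arg2 UMI, were lower after thinning than before. Without thinning, the Arg2 share was higher in the shallower neutrophil class. Arg2 was found in 18.3% and 18.9% of the whole mature class, at medians of 2324.5 and 2137.5 UMIs. In the whole immature class it was found in 7.28% and 5.04%, at 7543.5 and 9004 UMIs. The part of depth in these shares was not tested.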
